A study of Homo sapiens with 12 samples.

Results

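ALKBH5 and FTO, the enzymes known to remove N6-methyladenosine (m6A) from mRNA, were examined in oral squamous cell carcinoma cells cultured with or without rapamycin. Both members were chosen by name and located by their Ensembl identifiers, ENSG00000091542 for ALKBH5 and ENSG00000140718 for FTO. They are 2 of 58302 genes in the count table, and both are among the 15826 genes with enough counts to be tested. The cells were HSC3 and CAL33, established human lines of oral squamous cell carcinoma, and rapamycin was used at 100 nM to induce autophagy, for 3 days in the m6A experiment. RNA-seq comprised 4 libraries, 2 with rapamycin and 2 untreated controls, numbered 1 and 2 in each group. MeRIP-seq, in which RNA fragments are pulled down with an antibody against m6A and compared with the input RNA, gave 4 lists of m6A peaks, 1 for each line with and without rapamycin and each from 1 immunoprecipitated and 1 input library.

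m6A is placed on nascent mRNA by a nuclear methyltransferase complex built around METTL3 and METTL14, is bound by reader proteins of the YTH and IGF2BP families, and is removed by the erasers. ALKBH5 and FTO both belong to the AlkB family of dioxygenases, which use iron, oxygen and alpha-ketoglutarate to oxidize a methyl group off a nucleic acid base. ALKBH5 is a mainly nuclear enzyme that restores adenosine in mRNA, whereas FTO also removes the methyl group from the related m6Am next to the mRNA cap and from m6A in small nuclear RNA. Rapamycin inhibits the kinase complex mTORC1, which restrains autophagy when nutrients are plentiful. The study asked how m6A and its enzymes relate to autophagy in these cells. By western blot with rapamycin, it reported lower FTO protein, higher METTL14 protein and no significant change for ALKBH5, METTL3 or WTAP. The mRNA values below differ from this, since ALKBH5 was lower with rapamycin and neither FTO nor METTL14 passed the test. Protein is not part of the data used here, and the reason for the difference was not tested.

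The labels of the RNA-seq libraries give HSC3 as the line of both rapamycin libraries and CAL33 as the line of both controls, whereas in the labels of the m6A libraries number 1 is HSC3 and number 2 is CAL33 in both treatments. If the RNA-seq labels hold, treatment and cell line cannot be told apart in any mRNA comparison below. Across genes, log2 expression correlated at 0.964 and 0.954 between libraries of the same number and at 0.739 to 0.79 between the other pairs. The 357 tested genes with m6A peaks in both HSC3 lists and in neither CAL33 list (2.26% of tested genes) had a median log2 difference between number 1 and number 2 of 0.412 in the controls and 0.482 with rapamycin. The 189 genes with peaks in both CAL33 lists and in neither HSC3 list (1.19%) had medians of -0.438 and -0.432. The libraries were not regrouped. Each comparison was therefore fitted without regard to the numbers and, as an alternative, with the number as a block, which compares rapamycin with control within a number.

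Total counts ranged from 18492273 to 23763098 per RNA-seq library. CPM are counts scaled to library size. The summed level of 8 squamous epithelial markers was 698 and 848 CPM in the libraries numbered 1. It was 3350 and 4750 CPM in those numbered 2. KRT14 was at 0 in both libraries numbered 1, and in number 2 at only 1.26 CPM with rapamycin and 9.34 CPM in control. The members did not all follow the sum, since CDH1 was higher in number 1, at 304 CPM with rapamycin and 334 CPM in control against 221 and 180 CPM in number 2, and SFN was higher in number 1 with rapamycin (332 against 238 CPM). The leukocyte marker PTPRC was at 0 in every library. The 3 endothelial markers summed to between 1.42 and 45.4 CPM. Of these, CDH5 was at 41.6 CPM with rapamycin and 25.6 CPM in control in number 2, against 0.684 and 0.877 CPM in number 1. The 4 fibroblast markers summed to between 8.79 and 31.9 CPM, with COL1A1 between 8.79 and 29.3 CPM and COL1A2 and DCN at 0 in every library. Nothing states that libraries of a group came from separate cultures, so p-values measure only the spread between these libraries. Without the block, that spread includes the difference between the numbers seen in the correlations above. With the block, it is how far the change with rapamycin differs between the numbers, which may be technical. In both fits edgeR also draws a gene's spread from that of the other tested genes, largely so with the block. A blocked p-value of a single gene therefore does not rest on that gene's own spread alone.

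In RefSeq annotation of GRCh38.p14, ALKBH5 lies on the plus strand of chromosome 17 at positions 18183828 to 18209954, a gene of 26.1 kb. FTO lies on the plus strand of chromosome 16 at positions 53703963 to 54121941 and spans 418 kb. The sequences immediately upstream of the 2 gene starts are shown because the mRNA results below concern these genes and because FTO shares its start region with a neighbour. The first is the 250 bases before the ALKBH5 start (chr17:18183578-18183827, plus strand), with the letters GCGTG on either strand, the core bound by hypoxia-inducible factors, in capitals.
ALKBH5 upstream: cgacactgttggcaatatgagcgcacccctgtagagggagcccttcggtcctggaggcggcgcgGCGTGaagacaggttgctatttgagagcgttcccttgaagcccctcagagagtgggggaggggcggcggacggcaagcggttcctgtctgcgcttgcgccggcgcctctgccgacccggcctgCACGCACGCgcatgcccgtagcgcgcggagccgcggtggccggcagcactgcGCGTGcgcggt
The second is the whole stretch of 103 bases between the starts of FTO and RPGRIP1L, a gene of the ciliary transition zone that is read in the opposite direction (chr16:53703860-53703962, plus strand of FTO), with the letters ACTACA on either strand in capitals.
RPGRIP1L-FTO stretch: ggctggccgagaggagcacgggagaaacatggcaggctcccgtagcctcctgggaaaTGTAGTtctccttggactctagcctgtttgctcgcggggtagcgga
The ALKBH5 stretch held 32 CpG dinucleotides and 70.0% G and C, against 6 CpG and 61.2% in the shorter stretch beside FTO. GCGTG occurred 4 times upstream of ALKBH5, 2 of them overlapping, and 32.2% of 35116 upstream windows of 250 bases in RefSeq held it at least once. The share of windows with 4 matches, or among windows of like G and C content, was not computed. The related core ACGTG (18.5% of windows), the E-box CACGTG (6.34%), CCAAT (32.0%) and ACTACA (7.28%) were not among these letters, and GGGCGG (42.6%) occurred once. Beside FTO, ACTACA occurred once, and 3.03% of windows of 103 bases held it. None of the other letters searched upstream of ALKBH5 was found there. A match is a description of letters and not of binding.

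ALKBH5 mRNA was lower with rapamycin. ALKBH5 stood at 138.1 CPM in control 1 (95% Poisson interval 133.2 to 143.2, from 2991 reads) and 118.8 CPM in control 2 (114.4 to 123.3, from 2812 reads). It stood at 58.84 CPM in rapamycin 1 (55.45 to 62.4, from 1119 reads) and 75.81 CPM in rapamycin 2 (71.87 to 79.92, from 1382 reads). Both rapamycin libraries lay below both controls, a pattern shared by 2605 of the 15826 tested genes (16.5%). These intervals cover counting error only, and in bulk RNA fewer expressing cells and less RNA per cell cannot be told apart. Among tested genes, ALKBH5 fell from percentiles 90.37 and 88.27 of expression in the controls to percentiles 77.61 and 81.51 with rapamycin.

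The mean of ALKBH5 was 128.5 ± 13.66 CPM in controls and 67.33 ± 12 CPM with rapamycin (SD, n = 2 each). Without the block, the log2 fold change was -0.93 (SE 0.309, 95% interval -1.79 to -0.08), with an adjusted p of 0.9997 in edgeR's quasi-likelihood test. That fit called 0 of 15826 genes (0%) at an adjusted p under 0.05, with 446 genes at an unadjusted p under 0.05, and DESeq2 called 42. With the number as a block the log2 fold change was -0.94 (SE 0.262), which is 52.2% of the control level (95% interval 0.359-fold to 0.757-fold), and the adjusted p was 0.0266. The blocked fit called 554 genes lower (3.50%) and 736 higher (4.65%), and 5.77% of tested genes had a fold change as low as that of ALKBH5 or lower. ALKBH5 dropped to 42.6% of control within number 1 and to 63.8% within number 2, whereas the median gene changed by 0.003 and 0.03 on the log2 scale. Leaving out each library in turn moved the ALKBH5 log2 fold change between -1.15 and -0.79 in the fit without the block.

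FTO, the other eraser, did not pass the test in either fit. FTO stood at 44.98 CPM in control 1 (95% Poisson interval 42.2 to 47.89, from 974 reads) and 60.79 CPM in control 2 (57.69 to 64.02, from 1439 reads). It stood at 51.54 CPM in rapamycin 1 (48.36 to 54.87, from 980 reads) and 72.41 CPM in rapamycin 2 (68.56 to 76.42, from 1320 reads). The 2 groups overlapped, since rapamycin 1 lay below control 2, and both libraries numbered 1 lay below both libraries numbered 2. The means were 52.89 ± 11.18 CPM in controls and 61.97 ± 14.76 CPM with rapamycin (SD, n = 2 each).

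The log2 fold change of FTO was 0.23 (SE 0.361, 95% interval -0.77 to 1.23, adjusted p = 0.9997) without the block and 0.22 (SE 0.27, adjusted p = 0.659) with it, by edgeR's quasi-likelihood test. On the linear scale the blocked estimate was 1.17-fold, and its 95% interval ran from 0.796-fold to 1.71-fold, so the libraries leave room for a modest fall as well as for a rise. FTO was at 115% of control within number 1 and 119% within number 2. In the fit without the block, leaving out a library also leaves the numbers unequal between the groups. The log2 fold change of FTO was then -0.06 without rapamycin 2 and -0.04 without control 1, and it was 0.43 and 0.46 without the other libraries. FTO differed by number as well, with log2 differences between number 1 and number 2 of -0.43 in controls and -0.49 with rapamycin. In every fit with a library left out, also those that kept the direction, number and treatment were unbalanced. The cause of the change of sign was not tested. The summed squamous markers were lower in number 1 as well, with CDH1 (and SFN with rapamycin) the other way, and their part in the FTO levels was not tested.

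**Figure D1:**
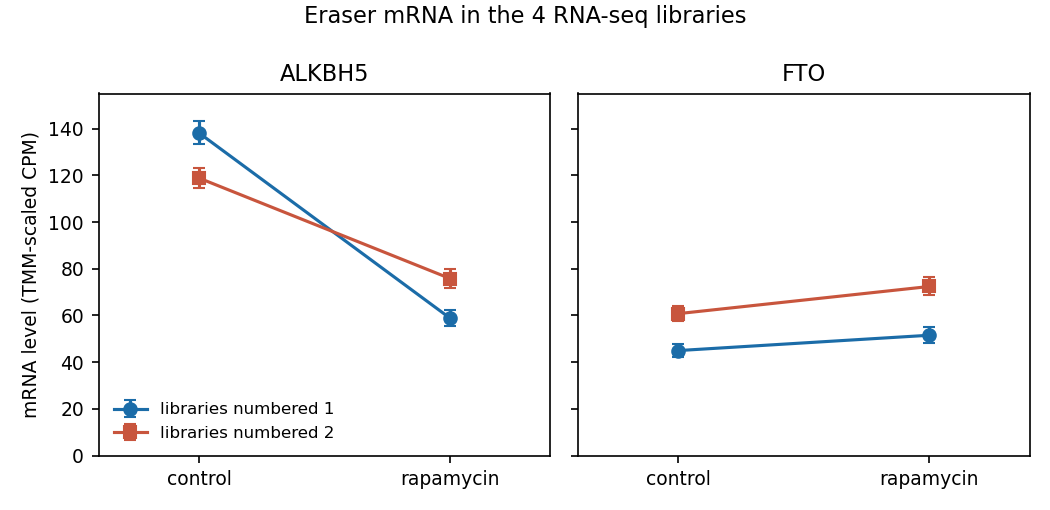
mRNA level of ALKBH5 and FTO in TMM-scaled CPM (vertical axis) in the control and rapamycin libraries, with 95% Poisson intervals as error bars and a line joining libraries of the same number. Both ALKBH5 lines fall, from 138.1 to 58.84 CPM in number 1 and from 118.8 to 75.81 CPM in number 2, while FTO stays between 44.98 and 72.41 CPM with number 2 above number 1.

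The balance of the 2 eraser mRNAs can be read as a ratio of counts within a library, which does not depend on how libraries are scaled. The table gives no exon lengths, so the ratio is followed between libraries and is not a ratio of molecules. There were 3.07 ALKBH5 reads per FTO read in control 1 and 1.95 in control 2, against 1.14 in rapamycin 1 and 1.05 in rapamycin 2. Every control lay above both rapamycin libraries, as for ALKBH5 alone, a pattern that 16.5% of tested genes had in their own levels. The share among ratios of other genes was not computed. The ratio contains the ALKBH5 count, so it is not independent of the fall of ALKBH5 given above. The log2 ratio averaged 1.29 (SD 0.461, n = 2) in controls and 0.13 (SD 0.088, n = 2) with rapamycin, a difference of -1.16. The exact two-sided permutation test gave p = 0.333, the smallest value that 2 libraries against 2 allow. The difference was -1.43 within number 1 and -0.90 within number 2, and it ranged from -1.49 to -0.84 with each library left out.

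The ALKBH5 count was also set against those of 3 writers. Relative to METTL14, the partner that holds RNA for the catalytic subunit, the log2 ratio was 2.85 and 2.51 in controls and 1.55 and 1.97 with rapamycin, a change of -0.92 (exact permutation p = 0.333). Relative to METTL3, the catalytic subunit, the change was -0.72 (exact permutation p = 0.333). Relative to WTAP, which anchors the methyltransferase pair in nuclear speckles, the groups overlapped and the change was -0.51 (exact permutation p = 0.667).

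The mRNAs of both erasers carried m6A peaks themselves. The ALKBH5 transcript had 1 peak in each control list and none in either rapamycin list, all on the plus strand and annotated as coding sequence. In HSC3 control the peak lay at chr17:18184528-18184707 with a 6.54-fold enrichment over input, as the authors' peak caller gave it. In CAL33 control it lay at chr17:18184319-18184498 with a 33.7-fold enrichment. The 2 peaks did not overlap. They were separated by 29 bases and together lay within a stretch of 389 bases near the gene's start, 491 to 879 bases downstream of it.

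A peak in both control lists and in neither rapamycin list was found for 245 of 15826 tested genes (1.55%), ALKBH5 among them. Of the 1244 tested genes with a peak in both control lists, those 245 are 19.7%. The reverse pattern, both rapamycin lists and neither control list, held for 183 genes (1.16%). With 1 pair of libraries per line and treatment and the depth of those libraries unknown, there is no test of the loss, and a missing peak is one that did not reach the caller's threshold. Fewer ALKBH5 transcripts were measured in the same treatment, and whether that has a part in the missing peaks was not tested. Over the 245 genes the median blocked log2 fold change in mRNA was -0.25 and 54.3% were lower with rapamycin within both numbers. Those values were -0.15 and 47.4% for the 572 genes with a peak in all 4 lists, and 0.05 and 31.8% for all tested genes.

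The FTO transcript divided by line, with 1 peak in each CAL33 list and none in either HSC3 list. A peak in both CAL33 lists and in neither HSC3 list was found for 189 of 15826 tested genes (1.19%). Among the genes of the lists below, CEBPA and AKTIP had this pattern too. Absence from the HSC3 lists means only that no peak reached the caller's threshold. Both CAL33 peaks lay at chr16:53826106-53826286, in coding sequence on the plus strand, 122143 bases from the gene's start or 29.2% of the way along the gene. Identical first and last bases were found in 32 of 1035 overlapping pairs of CAL33 peaks (3.09%), and 920 of 3079 CAL33 rapamycin peaks (29.9%) overlapped a control peak at all. The enrichment at FTO was 4.26-fold in CAL33 control and 26.8-fold in CAL33 rapamycin. This is a 6.29-fold higher enrichment with rapamycin, and 122 of the 1035 overlapping pairs (11.8%) rose by as much or more. The median pair went the other way, with a log2 ratio of -0.49 and quartiles of -2.05 and 1.34. The value has no replicate, and it comes from the line whose rapamycin list was the shortest, at 3079 peaks.

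By fold enrichment, the eraser peaks lay in the lower part of their own lists. The median enrichment of a list ran from 33.3-fold to 42.6-fold. The ALKBH5 peak stood at percentile 10.8 of enrichment in HSC3 control and percentile 43.1 in CAL33 control. The FTO peak stood at percentile 5.9 in CAL33 control and percentile 43.4 in CAL33 rapamycin. By the caller's p-value, ranked from the smallest, the order was another: the ALKBH5 peak stood at percentile 8.3 in CAL33 control and 51.2 in HSC3 control, and the FTO peak at 77.9 in CAL33 control and 42.2 in CAL33 rapamycin. Between 14.2% and 17.6% of tested genes had a peak in a list (17.6% in HSC3 control, 17.5% in HSC3 rapamycin, 16.1% in CAL33 control and 14.2% in CAL33 rapamycin), and each eraser was found in 2 of the 4 lists.

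**Figure D2:**
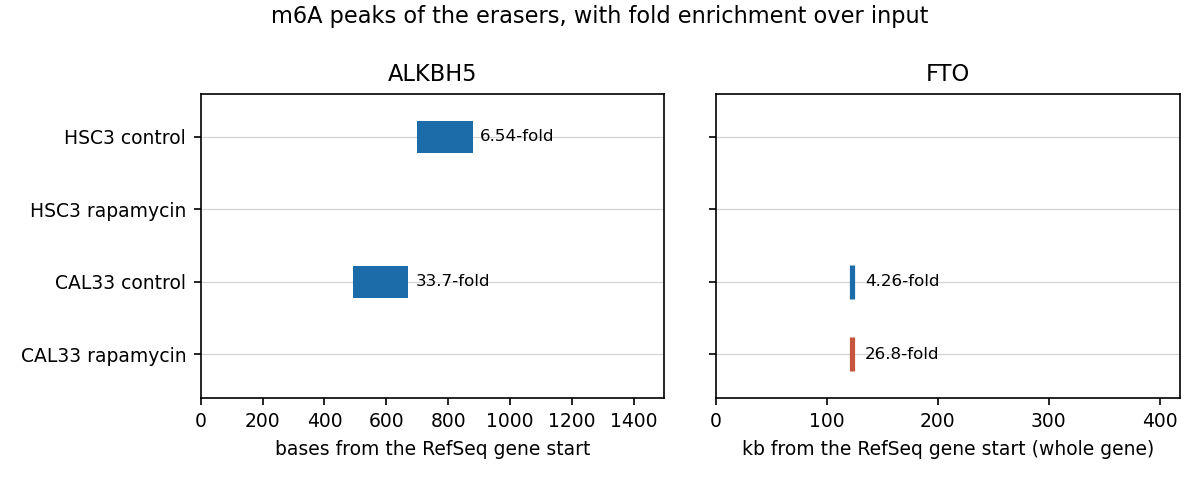
m6A peaks of ALKBH5 (left, bases from the RefSeq gene start) and FTO (right, kb from the gene start over the whole gene) in the 4 peak lists, labelled with fold enrichment over input. ALKBH5 bars are to scale and occupy only the control rows, while the FTO marks show position only, since the peak is too narrow to draw to scale, and occupy only the CAL33 rows.

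**Figure D3:**
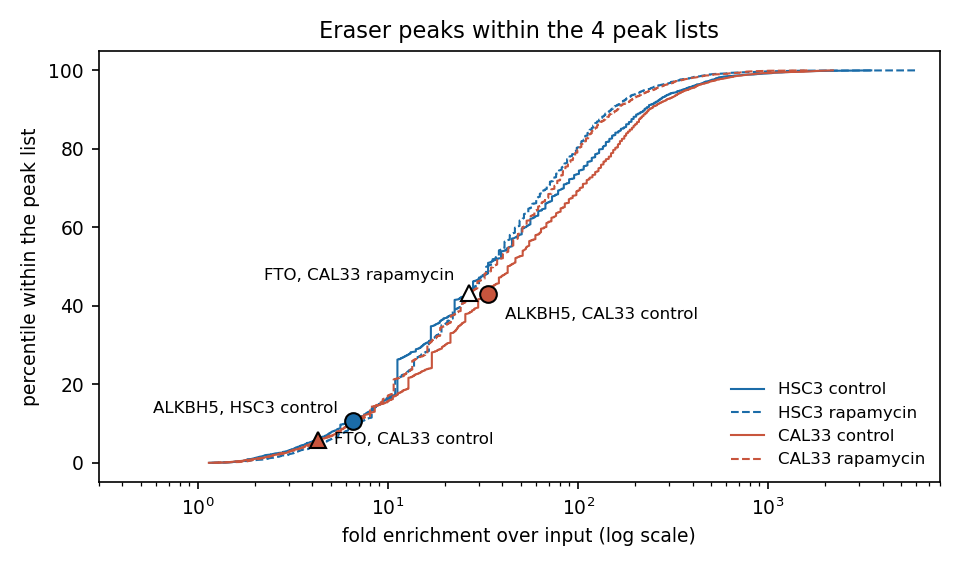
Cumulative distribution of fold enrichment over input (horizontal axis, log scale) in each of the 4 peak lists, with the percentile within the list on the vertical axis and the eraser peaks as symbols. The ALKBH5 peak in HSC3 control and the FTO peak in CAL33 control sit in the lowest part of their lists, at percentiles 10.8 and 5.9, and the other peaks sit near percentile 43.

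One measurement near ALKBH5 limits the HSC3 peak. The HSC3 control list also holds a peak on the minus strand at chr17:18184543-18184723, assigned to the antisense RNA AC087164.1, with a 7.85-fold enrichment. It shares 165 of the 180 bases of the ALKBH5 peak. RNA-seq gave AC087164.1 4 reads in all over the 4 libraries. The use of strand in peak calling and in counting is not given in the sources used here, so reads of ALKBH5 and of this antisense gene cannot be told apart in that stretch. The CAL33 control peak of ALKBH5 does not reach it.

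The relatives and partners of the erasers were read from fixed lists, each as a count from the blocked fit. Without the block no member of any list passed in edgeR. With it, 4.65% of all tested genes were called higher and 3.50% lower, so lists this short would hold few calls or none at that share. Of the other 7 AlkB genes, which repair alkylated DNA or modify transfer RNA and proteins, 0 rose, 0 fell and 7 did not pass the test, with a median log2 fold change of -0.05. The 12 writers behaved likewise, with 0 past the test and a median of -0.27. METTL3 stood at 57.4 and 36.67 CPM in controls and 43.23 and 35.93 CPM with rapamycin, with a blocked log2 fold change of -0.22 (SE 0.284) and an adjusted p of 0.685. METTL14 stood at 19.16 and 20.87 CPM in controls and 20.14 and 19.31 CPM with rapamycin, with a blocked log2 fold change of -0.02 (SE 0.327) and an adjusted p of 0.976. Of the 12 readers 1 rose and 11 did not pass, with a median of -0.27. The one that rose was IGF2BP2, a reader that stabilizes its target mRNAs, with a log2 fold change of 0.89 (SE 0.257) and an adjusted p of 0.0316. Among 15 enzymes of the metabolism of alpha-ketoglutarate, succinate and fumarate, the co-substrate, by-product and inhibitors of AlkB dioxygenases, 0 passed and the median was -0.20.

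**Figure D4:**
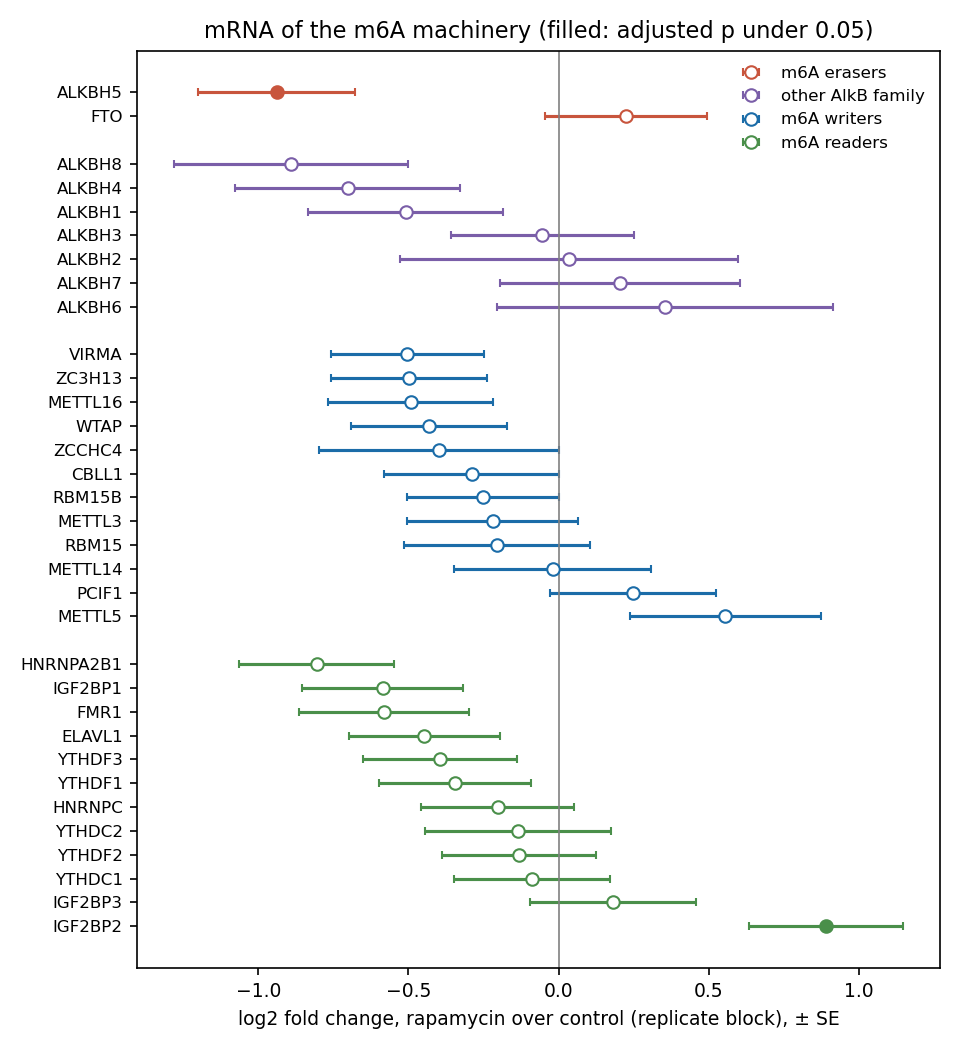
log2 fold change of rapamycin over control with the number as a block (horizontal axis), with bars of 1 SE, for the erasers, the other AlkB genes, the writers and the readers. ALKBH5 on the left and IGF2BP2 on the right are the only filled points (adjusted p under 0.05) among the genes drawn.

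Peaks were counted for genes of these lists as well. Of the 7 other AlkB genes, 2 had a peak in any list. ALKBH4, like ALKBH5, had peaks in both control lists and in neither rapamycin list, and ALKBH1 had one in HSC3 control alone. Of the 12 writers, 9 had a peak and WTAP, VIRMA, RBM15, RBM15B and ZC3H13 had one in all 4 lists, while METTL3 and METTL14 had one in HSC3 control alone. Of the 12 readers, 8 had a peak, and YTHDF2, which directs m6A-bearing mRNA to decay, had one in all 4 lists. Among all 15826 tested genes, 572 had a peak in all 4 lists, and between 14.2% and 17.6% had one in a given list. The share with a peak in any list was not computed, so these counts have no background. No writer and no reader had peaks in both control lists and in neither rapamycin list. That pattern was held by 1.55% of all tested genes, so lists this short would hold few or none at that share.

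Transcripts described elsewhere as substrates of the erasers moved in both directions, read against the 4.65% of all tested genes called higher and the 3.50% called lower. Of 5 reported for ALKBH5, 3 were tested, since NANOG and WIF1 had no reads, and of these 1 fell and 2 did not pass. FOXM1, a transcription factor of the cell division programme, fell from 330.4 and 280.8 CPM to 161.3 and 178.7 CPM, with a log2 fold change of -0.84 (SE 0.258, edgeR adjusted p = 0.0417). FOXM1 had m6A peaks in all 4 lists. Of 10 reported for FTO, 9 were tested, since RUNX1T1 had no reads, and 2 rose, 1 fell and 6 did not pass. ULK1, the kinase that starts autophagosome formation, rose from 44.47 and 53.06 CPM to 212.9 and 136.8 CPM, with a log2 fold change of 1.81 (SE 0.277, edgeR adjusted p = 0.000485). MYC, a growth-promoting transcription factor, rose from 188.4 and 157.6 CPM to 607.6 and 249.5 CPM, with a log2 fold change of 1.18 (SE 0.281, edgeR adjusted p = 0.0119). EIF4G1, the scaffold of cap-dependent translation initiation, fell from 1548 and 2032 CPM to 957 and 1019 CPM, with a log2 fold change of -0.85 (SE 0.265, edgeR adjusted p = 0.0467). The study itself reported lower EIF4G1 mRNA and higher m6A from sequencing of its rapamycin model. The values of EIF4G1 here are therefore not an independent result. MYC and EIF4G1 had m6A peaks in all 4 lists, like FOXM1 and 572 of the 15826 tested genes. Each of these calls rests on the block.

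Genes beside the erasers were read in the same way, over protein-coding genes within 250 kb and against the same 4.65% higher and 3.50% lower. None of the 13 tested neighbours of ALKBH5 passed the test with the block, and their median log2 fold change was 0.19. Of the 4 tested neighbours of FTO, 1 rose. RBL2, a pocket protein that restrains the cell cycle, stood at 24.75 and 48.58 CPM in controls and 44.33 and 134.1 CPM with rapamycin, with a log2 fold change of 1.16 (SE 0.278, edgeR adjusted p = 0.0108). RPGRIP1L, which shares the start region shown above with FTO, stood at 10.81 and 19.73 CPM in controls and 11.99 and 14.15 CPM with rapamycin, with a log2 fold change of -0.17 (SE 0.367, edgeR adjusted p = 0.826).

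The genes with the most similar profile to each eraser were found by the distance between gene-centred log2 CPM values over the 4 libraries, among 15826 genes. Nearest to ALKBH5 were ASPM, a protein of the mitotic spindle pole, at a distance of 0.08, ARHGAP19, a GTPase-activating protein, at 0.088, and STARD4, a cholesterol transfer protein, at 0.098. ASPM stood at 96.14 and 87.32 CPM in controls and 44.02 and 54.09 CPM with rapamycin. Nearest to FTO were EIF2S3B, a copy of a translation initiation factor subunit that may share reads with its paralog, at 0.035, SHARPIN, a subunit of a linear ubiquitin ligase, at 0.035, and NCK1, a signalling adaptor, at 0.051. With 4 libraries such a distance is a description, and many genes can lie close by.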

How the data were processed

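RNA-seq (4 libraries) and MeRIP-seq (4 pairs of immunoprecipitated and input libraries) of HSC3 and CAL33 cells were analysed. For RNA-seq, the authors deposited raw counts per gene from HTSeq, not normalized, from a stranded kit, and whether strand was used in counting is not given in the sources used here. For MeRIP-seq, the authors deposited peak lists, 1 per pair, with fold enrichment (a ratio over input), a p-value (in a column named score) and the log10 of its false discovery rate (treated here as a score without a fixed range), and the reads were not analysed here. The submitters' processing notes name hg38, cutadapt 2.5, HISAT2 2.1.0, featureCounts 1.6.3 and HOMER 4.10.4, with no roles. Positions are counted from 1 and give the whole listed range of a peak.

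The counts were tested in edgeR 4.0.16 (R 4.3.3) after filterByExpr and TMM scaling, by the quasi-likelihood method with robust dispersion. Adjustment followed Benjamini and Hochberg over 15826 genes, at 0.05. A symbol was found for 98.7% of gene identifiers. A library held from 18492273 to 23763098 counts, so counting error is small for both erasers. The ratio of ALKBH5 to FTO counts was tested by exact permutation in R. Peaks overlapped between treatments when their exonic blocks, the exon parts listed for a peak, shared at least 1 base on the same strand. Promoter sequences came from RefSeq (GRCh38.p14).

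Whether the numbers pair the libraries was checked. Across genes, the contrast of number 1 with number 2 was correlated between rapamycin and control (r = 0.905). In the m6A labels a number marks a cell line, although the lines given for the RNA-seq libraries go against this. The blocked value is printed where it changes a call.

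The members and lists were chosen with earlier results of these data known. ALKBH5 and FTO are given in full. From lists of AlkB genes, writers, readers, cofactor enzymes, reported substrates and neighbours, values are given for genes past the test with the block and for METTL3, METTL14 and EIF4G1. RPGRIP1L was named for its position, and genes named for where their peaks were found were chosen after those were seen. Alternatives were DESeq2 1.42.0, other scaling (RLE and upper quartile), testing without a filter on counts, a minimum of 10 counts in each library, the block, each library left out, stricter peak thresholds and a 50% overlap. The block combined with other scaling, filter or DESeq2 was added after seeing the data. The tests were first run on simulated data with known changes.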

Additional observations from a re-analysis of the deposited data

Results flagged for a closer look

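METTL14 mRNA, the writer subunit that the study's title names, had differences of opposite sign in the 2 numbers. The log2 difference of rapamycin minus control was 0.072 in number 1 and -0.112 in number 2, smaller than the SE of 0.327 of the blocked fold change, so no direction can be read from them. The difference between the numbers was not tested, since each rests on 1 library per treatment.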

How the results depend on the processing

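Calls in the mRNA comparison depended on the replicate block, and no fit addresses the conflict over which line each RNA-seq library came from. The number of genes called changed was 0 without the block, 42 with DESeq2 and 1290 with the block, and it was 1230, 1165, 1236 and 818 when the block was combined with RLE scaling, upper-quartile scaling, a minimum of 10 counts and DESeq2. The ALKBH5 log2 fold change passed the threshold with the block (-0.939), and also with the block and RLE (-0.926), upper-quartile scaling (-0.864), the count minimum (-0.913) or DESeq2 (-0.926), with adjusted p from 0.0266 to 0.0436 in edgeR and DESeq2. Without the block it kept its direction, between -0.969 and -0.864, and did not pass (adjusted p from 0.41 to 0.9999). DESeq2 gave no adjusted p for 6750 genes. With each library left out, ALKBH5 ranged from -1.147 to -0.785, FTO from -0.06 to 0.455, reversing in 2 of 4 cases, and the ratio of their counts from -1.49 to -0.838. FTO passed in no fit. Every fit with a library left out had the numbers unequal between the groups, those that kept the direction of FTO included. Within number 1 and number 2 FTO was at 115% and 119% of control. The cause of the reversals was not tested. The block changed no other call of ALKBH5 or FTO. Peak counts of both genes were the same at a false discovery rate of 0.05 and at a fold enrichment of at least 4. These settings can only remove peaks, so a count of 0 could not change. The lowest enrichment among the eraser peaks, 4.26-fold, was already above the second threshold. The 2 FTO peaks in CAL33 have the same ends, so requiring a 50% overlap could not separate them. The missing peaks were therefore not tested by these settings. The depth of the m6A libraries is unknown, so no error can be put on a fold enrichment.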
